A study of Mus musculus with 4 samples.

Results

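The SR proteins are a family of RNA-binding splicing factors, and 10 of their genes were followed here: Srsf1, Srsf2, Srsf3, Srsf4, Srsf5, Srsf6, Srsf7, Srsf9, Srsf10 and Srsf11. They were taken by gene symbol from a deposited table of 53715 genes, each symbol matched 1 gene, and all 10 passed the filter on low counts. The cells were sorted thymocytes of C57BL/6 mice aged 6 to 8 weeks that carried both CD4 and CD8 (double-positive), the stage at which most thymocytes are found. The 2 knockout (KO) libraries came from mice with the genotype LCKCre/+ Srsf1fl/fl, that is, with loxP sites in both copies of Srsf1 and a Cre recombinase under the Lck promoter, which becomes active in early thymocytes. The 2 wild-type (WT) libraries are labelled WT with no statement on Cre or loxP sites. The labels do not say that the libraries came from separate mice, so the spread between replicates may be technical.

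SR proteins bind short sequences in exons through an RNA recognition motif near the start of the protein. Through a tail rich in alternating arginine and serine (the RS domain) they help to bring the U1 and U2 particles of the spliceosome to nearby splice sites. Kinases of the SRPK and CLK families phosphorylate the tail and so set where the proteins sit in the cell. Several SR genes are known to hold down their own levels by splicing in an exon with a premature stop codon, which sends the transcript to nonsense-mediated decay. In T cells, SRSF1 is known for regulating the splicing of signalling genes, the CD3 zeta chain among them.

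The coding sequences show how the members differ in the RS domain that names the family. Counted over the principal coding transcript of each gene (GENCODE release M21, build GRCm38), 31.1% of the codons of Srsf7 were an arginine or serine codon next to the other kind. The share was 29.1% for Srsf4, 28.5% for Srsf2, 27.7% for Srsf6, 22.3% for Srsf5 and 22.0% for Srsf3. It was 16.1% for Srsf1, 15.3% for Srsf10, 11.9% for Srsf11 and 6.76% for Srsf9, the lowest of the 10. The richest run of 20 codons is shown for Srsf1 and for the members that rose in KO thymocytes, Srsf9 and Srsf6, 5′ to 3′, with such codons in capitals. It lies at chr11:88049469-88049528 (plus strand) in Srsf1, at chr5:115332594-115332653 (plus strand) in Srsf9 and across an intron at chr2:162933852-162934276 (plus strand) in Srsf6.
Srsf1: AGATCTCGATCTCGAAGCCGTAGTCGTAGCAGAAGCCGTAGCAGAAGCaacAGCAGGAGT
Srsf9: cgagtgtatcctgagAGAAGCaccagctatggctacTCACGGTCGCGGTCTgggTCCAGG
Srsf6: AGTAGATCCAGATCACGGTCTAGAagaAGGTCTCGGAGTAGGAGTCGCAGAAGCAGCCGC
In that run, 19 of 20 codons were so placed in Srsf1, 19 of 20 in Srsf6 and 9 of 20 in Srsf9.

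By length and score of the best local alignment over the whole coding sequence, Srsf9 was the member most like Srsf1. The best local alignment of their coding sequences spanned 540 columns with 69.4% identical bases, of 747 coding bases in Srsf1 and 669 in Srsf9, stop codons included. Against the 8 other members the best alignment with Srsf1 spanned 18 to 133 columns, the longest being with Srsf6 at 68.4% identity. The most alike ungapped 60 bases of Srsf1 and Srsf9 are shown with the bases that differ in capitals, from chr11:88047926-88047985 and chr5:115327393-115327452 (both plus strand). They hold codons 30 to 49 of Srsf1 and 29 to 48 of Srsf9, in the first RNA recognition motif, and 51 of 60 bases are identical.
Srsf1: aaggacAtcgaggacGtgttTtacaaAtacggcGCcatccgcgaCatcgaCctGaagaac
Srsf9: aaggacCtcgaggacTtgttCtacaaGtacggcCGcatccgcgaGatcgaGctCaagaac

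Gene counts and RPKM values (counted reads scaled by gene length in kilobases and by the library total) were deposited for all 4 libraries, with total counts of 36389555 to 37033180 in KO and 35862730 to 36515358 in WT. RPKM is the scale for levels here, since it allows for gene length, and fold changes were tested on the counts with the edgeR quasi-likelihood test over 16588 genes. The defining markers of double-positive thymocytes were present: all 10 of the listed markers averaged at least 19.4 CPM (counts scaled to a common library total), and 6 of them rose in KO, with a summed level of 11290 to 11676 CPM in KO libraries and 7932 to 8236 CPM in WT libraries. The summed B cell markers stood at 18.8 to 21.1 CPM in KO and 10.1 to 12.2 CPM in WT, with Cd79b called higher, and the natural killer cell markers at 22.4 to 23.1 CPM in KO and 13.1 to 18.7 CPM in WT, with none called. The part of these levels in the results below was not tested. The epithelial markers Foxn1 and Krt5 and the natural killer cell receptor gene Ncr1 were at 0 in every library. All 5 epithelial markers summed to 9.89 to 12.1 CPM in KO and 11.6 to 13.4 CPM in WT, mostly Epcam. The 5 fibroblast and endothelium markers summed to 120 CPM in both KO libraries and 124 to 137 CPM in WT, nearly all from Pecam1. Macrophage and dendritic cell markers summed to 13.4 to 21.2 CPM in KO and 14.7 to 19.0 CPM in WT.

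Srsf1 fell, Srsf9 and Srsf6 rose, and the 7 other SR genes were not called at an adjusted p under 0.05. That is 2 of 10 members called higher, against 6.63% of all genes tested, and 1 of 10 called lower, against 7.89%. Calls were more frequent among abundant genes: of those at least as abundant as the least abundant member, 16.3% were called higher and 17.2% lower. The member counts therefore lie near that background, and nothing is read from them about the family as a whole. The median log2 fold change was 0.10 over the 9 members other than Srsf1 and 0.00 over all genes tested. The median absolute log2 fold change of the 9 was 0.12, against 0.34 over all genes tested, which include many at low counts. Srsf1 and Srsf9, 2 of 10 members, changed by 0.5 or more on the log2 scale in either direction, against 35.3% of all genes tested.

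**Figure D1:**
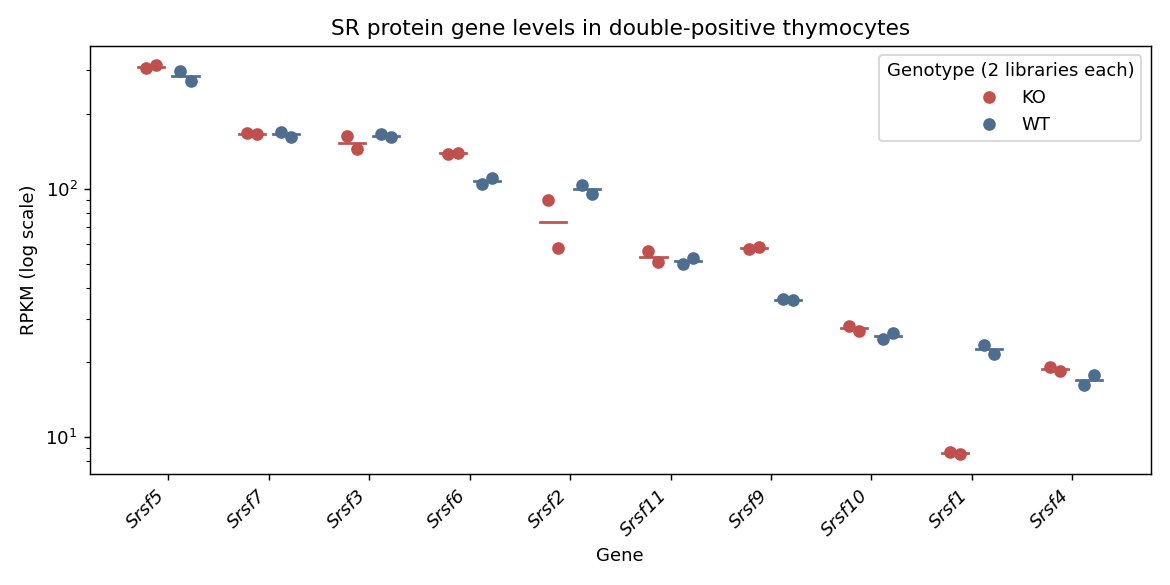
RPKM (log scale) of each SR protein gene in the 2 KO libraries (left of each pair) and the 2 WT libraries (right), with a bar at each mean and genes in order of the WT mean. Srsf1 is lower in KO, at 8.53 to 8.70 RPKM against 21.5 to 23.5 RPKM in WT, while Srsf9 and Srsf6 are higher in KO.

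Srsf1 (ENSMUSG00000018379.17, chromosome 11, plus strand), the deleted gene, had 8.70 and 8.53 RPKM in KO thymocytes, against 23.5 and 21.5 RPKM in WT thymocytes. The groups lay far apart and the KO libraries agreed closely, with a mean of 8.61 ± 0.119 RPKM in KO and 22.5 ± 1.44 RPKM in WT (SD, n = 2 each). The KO mean was 38.2% of the WT mean, with a log2 fold change of -1.39 (95% confidence interval -1.59 to -1.18, adjusted p = 2.91e-06 by edgeR). The value counts reads over the whole gene, so it does not separate cells that kept an intact copy from transcripts that lack the deleted part, and in bulk samples fewer expressing cells and less RNA per cell cannot be told apart. An antisense gene, Gm11508, shares 98 exonic bases with Srsf1, and it had 12 counts in KO replicate 1 and 0 in the other libraries.

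The 3 genes whose levels over the 4 libraries ran closest to Srsf1 were Rab11fip2, Cpeb2 and Vps37b. The measure was the root mean square difference of mean-centred log2 CPM, which was 0.04 for Rab11fip2 and 0.09 for both others. With 2 groups of 2 libraries, such likeness amounts to a like fold change, and Rab11fip2 had a log2 fold change of -1.44 (SE 0.15), Cpeb2 one of -1.55 (SE 0.16) and Vps37b one of -1.39 (SE 0.09).

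Srsf9, a splicing regulator with a pair of RNA recognition motifs, as in Srsf1, and the lowest share of arginine-serine codons, showed the largest fold rise of the 10 genes. Its level was 57.0 and 58.0 RPKM in KO thymocytes, against 36.0 and 35.5 RPKM in WT thymocytes. The replicates differed by about 1 RPKM or less in each genotype and the groups did not overlap. The KO mean was 60.9% above the WT mean, with a log2 fold change of 0.69 (95% confidence interval 0.48 to 0.89, adjusted p = 0.000493 by edgeR). Over the runs that left out 1 library each, the log2 fold change was 0.67 to 0.72 and the call held in all of them. Srsf9 (chromosome 5, 115327177 to 115333080, plus strand, GRCm38) overlaps no other annotated gene.

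Srsf6, a splicing enhancer protein with a long RS domain, also rose, and it was the more abundant of the pair. It had 139 and 139 RPKM in KO thymocytes, against 104 and 110 RPKM in WT thymocytes. Both KO libraries were above both WT libraries, and the KO mean was 29.4% higher, with a log2 fold change of 0.37 (95% confidence interval 0.23 to 0.52, adjusted p = 0.00252 by edgeR). The log2 fold change was 0.34 to 0.42 over the runs without 1 library, with the call held in all of them. Srsf6 (chromosome 2, 162931528 to 162937121, plus strand) also overlaps no other annotated gene. The difference in fold change between Srsf9 and Srsf6 was not tested, and their intervals overlap between 0.48 and 0.52.

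**Figure D2:**
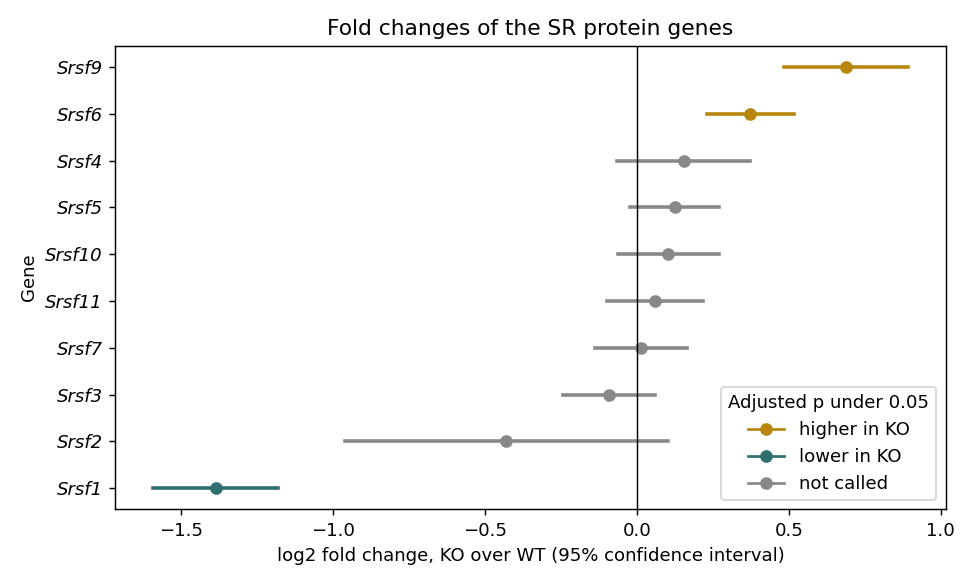
log2 fold change, KO over WT, of each SR protein gene from edgeR, with its 95% confidence interval and coloured by the call at an adjusted p under 0.05. Srsf9 (0.69) and Srsf6 (0.37) lie to the right of 0 and Srsf1 (-1.39) to the left, and the interval of Srsf2 is the widest, from -0.96 to 0.10.

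Srsf2, a nuclear SR protein known as a marker of splicing speckles, varied most between replicates. It had 90.1 and 57.5 RPKM in KO thymocytes, against 104 and 94.9 RPKM in WT thymocytes. Both KO libraries were below both WT libraries, but they differed from each other by more than KO replicate 1 differed from either WT library. The log2 fold change of -0.43 was not called (95% confidence interval -0.96 to 0.10, adjusted p = 0.273 by edgeR). The call turned on single libraries: Srsf2 was called lower without KO replicate 1 (log2 fold change -0.77, adjusted p = 1.2e-07) and without WT replicate 1 (-0.36, 0.0228), but not without KO replicate 2 (-0.14, 0.326) or WT replicate 2 (-0.49, 0.693). Limma-voom also called it lower (-0.46, adjusted p = 0.0255), as did edgeR with no filter on low counts (-0.43, 0.038).

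Srsf2 (chromosome 11, 116849901 to 116853094, minus strand) shares 460 exonic bases with Mettl23 and 288 with Mfsd11, both on the other strand. With no strand setting stated, reads from the 3 genes cannot be fully told apart. Mfsd11, a membrane transporter family gene, had 18.3 and 28.4 CPM in KO and 14.6 and 14.4 CPM in WT, so the KO library with the lowest Srsf2 had the highest Mfsd11 (log2 fold change 0.69, adjusted p = 0.0586). Mfsd11 was called higher without KO replicate 1 (0.99, adjusted p = 0.00265), with a filter of 1 CPM on average (0.68, 0.0295) and with no filter (0.69, 0.00851). Without KO replicate 2 its log2 fold change was 0.33 (adjusted p = 0.482), so the size of the difference rested on that library. Mettl23, a methyltransferase gene, had 48.6 and 35.9 CPM in KO, against 33.0 and 39.5 CPM in WT (log2 fold change 0.22, adjusted p = 0.421).

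Srsf3 and Srsf7, small SR proteins that also act as adaptors for mRNA export, were among the most abundant members and did not pass the test. Srsf3 had 163 and 144 RPKM in KO, against 166 and 161 RPKM in WT. Srsf7 had 167 and 167 RPKM in KO, against 169 and 162 RPKM in WT. The groups overlapped for both genes. The 95% confidence interval of the log2 fold change was -0.24 to 0.06 for Srsf3 and -0.14 to 0.16 for Srsf7, and both intervals include 0.

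Srsf5, the most abundant member, had 306 and 314 RPKM in KO thymocytes, against 298 and 271 RPKM in WT thymocytes. Srsf4, the relative of Srsf5 and Srsf6 with the longest coding sequence of those 3, was among the least abundant, at 19.2 and 18.5 RPKM in KO and 16.2 and 17.7 RPKM in WT. In both genes the KO libraries lay just above the WT libraries without overlap, and neither was called. The log2 fold changes were 0.12 for Srsf5 (95% confidence interval -0.02 to 0.27, adjusted p = 0.264) and 0.15 for Srsf4 (-0.07 to 0.37, 0.373), by edgeR. Srsf4 shares 1532 exonic bases with Gm12992 on the other strand, which had at most 165 counts in a library against at least 2075 for Srsf4. On the same strand, A930004J17Rik overlaps the span of Srsf4 by 4610 bases but shares 0 exonic bases with it. A930004J17Rik had 820 and 1024 counts in KO, against 1022 and 1043 in WT.

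Srsf10 acts as a general splicing repressor when it loses its phosphates, and Srsf11 is a larger SR-related protein. Srsf10 had 28.1 and 26.8 RPKM in KO, against 24.9 and 26.2 RPKM in WT. Srsf11 had 55.9 and 50.7 RPKM in KO, against 49.6 and 52.8 RPKM in WT. The groups overlapped for Srsf11 and were separate by less than 1 RPKM for Srsf10. The 95% confidence interval of the log2 fold change was -0.06 to 0.27 for Srsf10 and -0.10 to 0.22 for Srsf11. Gm43362, on the same strand, overlaps the span of Srsf11 by 2470 bases but shares 0 exonic bases with it. In all, 7 of the 10 members had KO and WT values that did not overlap. The same held for 55.9% of all genes tested, and for 73.0% of genes at least as abundant as the least abundant member, so separation in 2 against 2 libraries was common.

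The order of the members by RPKM changed in a few places. In KO it ran Srsf5, Srsf7, Srsf3, Srsf6, Srsf2, Srsf9, Srsf11, Srsf10, Srsf4 and Srsf1, and in WT it ran Srsf5, Srsf7, Srsf3, Srsf6, Srsf2, Srsf11, Srsf9, Srsf10, Srsf1 and Srsf4. Srsf1 was thus rank 10 in both KO libraries and rank 9 in both WT libraries, and Srsf9 stood above Srsf11 in KO and below it in WT. Among neighbours in that order, replicate ranges overlapped for Srsf2 and Srsf9 in KO and for Srsf7 and Srsf3 in WT. All other neighbours were separate within their genotype. The order rests on the deposited gene lengths. In mean CPM, Srsf1 (129) stood above Srsf4 (60.5) and Srsf9 (59.1) in WT. In KO, Srsf9 (95.1 CPM) stood below Srsf11 (450 CPM), and Srsf1 (49.2 CPM) was still the lowest member.

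Whether the other members made up for the lost Srsf1 RNA was read from the summed RPKM of the 10 genes. Srsf1 was a small part of that sum even in WT thymocytes. It made up 0.842% and 0.867% of the sum in KO libraries, against 2.37% and 2.26% in WT libraries. The share of Srsf9 was 5.52% and 5.90% in KO, against 3.63% and 3.73% in WT, and that of Srsf6 was 13.4% and 14.1% in KO, against 10.5% and 11.6% in WT. The Srsf9 level was 6.56 and 6.80 times that of Srsf1 in KO libraries, against 1.53 and 1.65 times in WT libraries. These ratios rest on the deposited gene lengths. In counts, Srsf9 was below Srsf1 in WT libraries, at 2133 and 2145 against 4821 and 4485. In KO libraries Srsf9 was above Srsf1 in counts too, at 3492 and 3490 against 1839 and 1772. The share of Srsf2 was 8.72% and 5.85% in KO, against 10.5% and 9.96% in WT. These sums and shares carry no p-value, and 2 against 2 libraries could not go below an exact two-sided permutation p of 0.333.

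**Figure D3:**
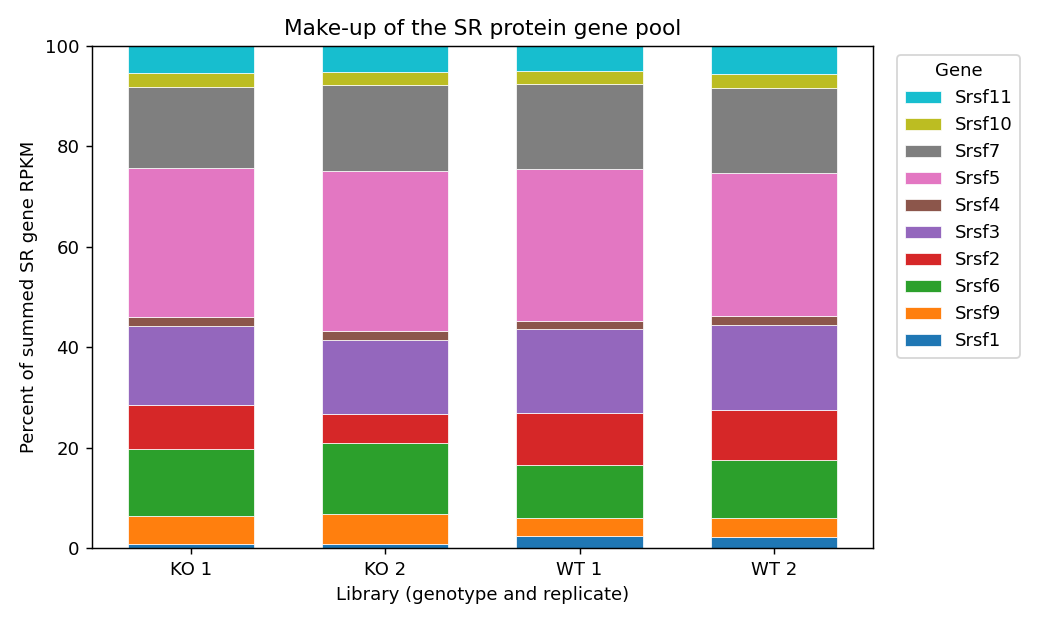
Share of the summed RPKM of the 10 SR protein genes taken by each gene, in percent, for the 2 KO libraries and the 2 WT libraries. Srsf1, at the bottom of each bar, takes 0.842% and 0.867% in KO and 2.37% and 2.26% in WT, and the Srsf9 and Srsf6 segments above it are wider in KO.

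The sum over all 10 genes was 1033 and 984 RPKM in KO thymocytes, against 992 and 953 RPKM in WT thymocytes, so the genotypes overlapped. Without Srsf1, the 9 other members summed to 1024 and 975 RPKM in KO, against 968 and 931 RPKM in WT. Those ranges did not overlap, with a gap of about 7 RPKM, and the KO mean was 5.27% above the WT mean. On average Srsf1 fell by 13.9 RPKM. The mean gain was 31.6 RPKM for Srsf6 and 21.8 RPKM for Srsf9, which is 2.27 times the loss for Srsf6 and 1.56 times for Srsf9. The Srsf9 figure depended on the deposited gene lengths (5710 bases for Srsf1 and 1653 for Srsf9): its gain was 0.475 times the Srsf1 loss in counts and 0.506 times per coding length, so smaller than the loss, but 2.09 times per principal transcript length. The Srsf6 gain was 1.40 to 2.91 times the loss on these 3 scales, and so larger than the loss on each. Every KO library was above every WT library by 28.4 to 34.8 RPKM for Srsf6 and by 21.1 to 22.5 RPKM for Srsf9.

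Between libraries, the total gain of the 9 members varied far more than the gains of Srsf6 and Srsf9. It came to 3.60 RPKM per RPKM of Srsf1 lost, but to 0.466 to 7.27 over the 4 pairings of a KO library with a WT library. The 7 members that were not called summed to 829 and 778 RPKM in KO, against 828 and 785 RPKM in WT. Srsf2, Srsf5 and Srsf3 had the longest ranges over the pairings. Srsf5 averaged 25.3 RPKM more in KO and Srsf2 25.6 RPKM less, and over the 4 pairings both differences spanned a range wider than the difference itself. With KO replicate 1 left out the total gain was 1.83 RPKM per RPKM of Srsf1 lost, and with KO replicate 2 left out it was 5.39. It was 5.32 without WT replicate 1 and 2.11 without WT replicate 2. When RPKM values were rescaled to an equal sum in each library (TPM), the gain was 1.96. It was 1.43 per coding length, 6.22 per principal transcript length and 5.15 without Srsf2, Srsf4 and Srsf11.

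**Figure D4:**
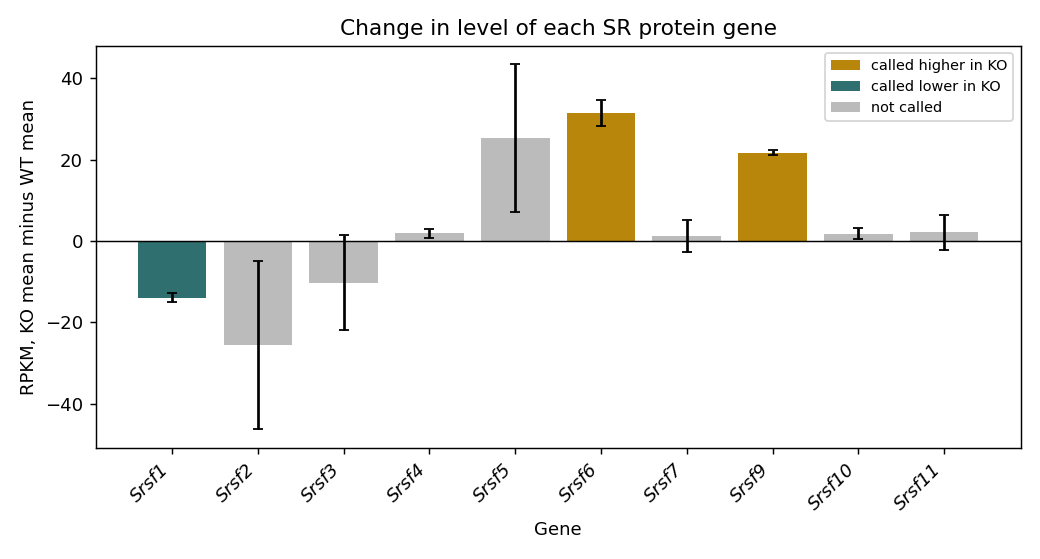
Difference in RPKM, KO mean minus WT mean, of each SR protein gene, with whiskers from the lowest to the highest of the 4 differences between a KO and a WT library. On this scale Srsf6 (31.6) and Srsf9 (21.8) gained more than Srsf1 lost (-13.9), but in counts and per coding length the Srsf9 gain was smaller than the loss (0.475 and 0.506 times), and the whiskers of Srsf2 and Srsf5 are the longest.

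Most members share a feature that neither their choice nor the counts used: transcripts annotated as targets of decay or with a retained intron. Of the 10 genes, 9 have at least 1 transcript annotated as subject to nonsense-mediated decay, the exception being Srsf10, and 8 have at least 1 annotated with a retained intron. Among the 12620 protein-coding genes tested, 28.4% have the first and 58.1% the second. Both kinds were annotated for 8 of the 10 members and for 22.4% of those genes. The members also have more annotated transcripts, with a median of 7.5 against 5 for those genes. The shares were not matched for this or for abundance. Srsf1 has 2 decay transcripts of 7 annotated, Srsf6 has 1 of 4 and Srsf9 has 1 of 5. Gene counts add up all transcripts of a gene, so a rise or fall in the count does not say which of them changed.

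The proteins that act with SR proteins were followed through a list of 23 genes: SR-like splicing factors, SR protein kinases, the importin and the export receptor that handle SR proteins, and U1 and U2 proteins. Of these 23, all tested, 2 rose, 5 fell and 16 were not called, with a median log2 fold change of -0.11 against 0.00 over all genes tested. That is a share of calls to be read against the 14.5% of all genes tested and the 33.5% of genes at least as abundant as the least abundant SR member that were called in either direction.

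The kinases of the CLK family, which phosphorylate SR proteins in the nucleus, moved in both directions. Clk3 had 98.6 and 107 RPKM in KO, against 161 and 154 RPKM in WT (log2 fold change -0.61, SE 0.07, adjusted p = 0.000108 by edgeR). Clk1 had 61.6 and 56.8 RPKM in KO, against 84.6 and 82.6 RPKM in WT (-0.50, SE 0.07, 0.000505). Clk2 was higher, with 21.1 and 20.3 RPKM in KO, against 15.4 and 14.7 RPKM in WT (0.46, SE 0.09, 0.00447). The KO and WT libraries were apart in all 3 genes, and Clk4 was not called (log2 fold change -0.14, adjusted p = 0.325). Clk3 shares 1284 exonic bases with Edc3 on the other strand, so its counts may be affected by those of Edc3.

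Of the kinases that phosphorylate SR proteins in the cytoplasm before import, Srpk1 and Srpk2 did not pass the test. Srpk1 had 11.8 and 11.7 RPKM in KO, against 9.81 and 10.1 RPKM in WT (log2 fold change 0.24, adjusted p = 0.0779 by edgeR). Srpk2 had 6.69 and 7.68 RPKM in KO, against 6.21 and 5.30 RPKM in WT (0.32, 0.0693). Both KO libraries were above both WT libraries for each gene. Srpk2 shares 972 exonic bases with Kmt2e on the other strand, so its counts may be affected by those of Kmt2e. Srpk2 was called higher with no filter (0.32, 0.0124), with a filter of 1 CPM on average (0.32, 0.0389), without KO replicate 1 (0.44, 0.0081) and without WT replicate 1 (0.45, 0.0147). Prpf4b, a kinase of the spliceosome, fell with 36.5 and 36.4 RPKM in KO, against 44.8 and 42.0 RPKM in WT (log2 fold change -0.25, adjusted p = 0.0351). It no longer passed when KO replicate 1 (adjusted p = 0.0594), WT replicate 1 (0.297) or WT replicate 2 (0.0559) was left out.

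Among the RS-rich proteins of the speckles and the exon junction, Son and Srrm2 fell and Pnn rose, while Srrm1 (log2 fold change -0.02, adjusted p = 0.903 by edgeR) and Acin1 (-0.14, 0.205) were not called. Son, a large speckle scaffold, had 74.1 and 74.9 RPKM in KO, against 92.8 and 96.6 RPKM in WT (log2 fold change -0.35, SE 0.06, adjusted p = 0.0023 by edgeR). Srrm2, another, had 73.8 and 79.5 RPKM in KO, against 89.3 and 94.1 RPKM in WT (-0.26, SE 0.07, 0.0232), and did not pass when KO replicate 1 (adjusted p = 0.0898) or WT replicate 2 (0.188) was left out. Pnn, a speckle protein of the exon junction machinery, rose with 54.4 and 51.3 RPKM in KO, against 41.9 and 41.5 RPKM in WT (0.34, SE 0.07, 0.00753). The groups did not overlap for Son, Srrm2 or Pnn.

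The SR-like factors Tra2a and Tra2b were not called, with log2 fold changes of -0.11 and -0.01. The importin Tnpo3 (0.06), the export receptor Nxf1 (0.01) and the U1 protein Snrnp70 (0.16, adjusted p = 0.124 by edgeR) were not called either. Srsf12, a low-abundance relative of Srsf10, had 0.755 and 0.506 RPKM in KO, against 1.34 and 0.722 RPKM in WT, with overlapping groups (log2 fold change -0.71, adjusted p = 0.418).

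**Figure D5:**
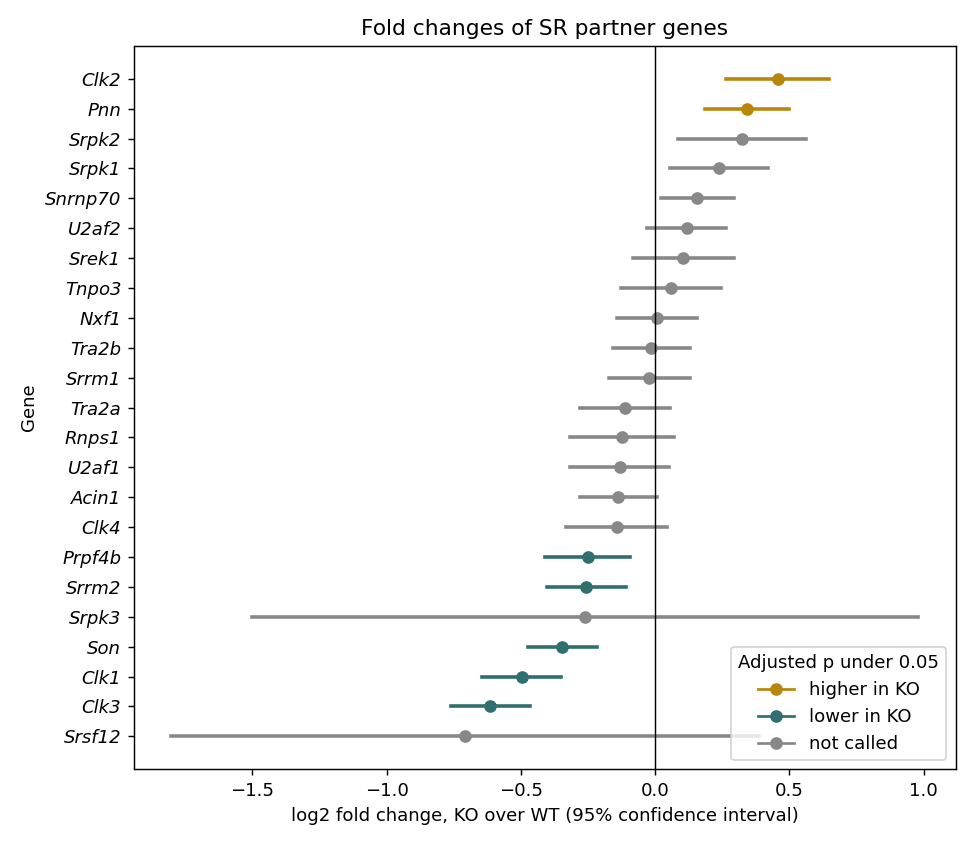
log2 fold change, KO over WT, of the 23 SR partner genes from edgeR, with 95% confidence intervals and coloured by the call at an adjusted p under 0.05. Clk2 (0.46) and Pnn (0.34) are called higher in KO, and Clk3 (-0.61), Clk1 (-0.50), Son (-0.35), Srrm2 (-0.26) and Prpf4b (-0.25) are called lower.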

How the data were processed

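RNA sequencing counts per gene were deposited by the authors for 2 KO and 2 WT libraries, grouped by the labels. Per the submitters' processing notes, the build was GRCm38 (mm10) and the tools were STAR 2.6.0a, DESeq2 1.24.0, HTSeq 0.6.1, cutadapt 1.17 and FastQC 0.11.5. The sources used here give no settings, strand mode or annotation release. The authors' deposited RPKM values equalled counts divided by the deposited gene length in bases and by the library's total count (relative tolerance 1e-06). That length equalled the union of annotated exons in GENCODE M21 for 8 of the 10 members, the exceptions being Srsf3 and Srsf7. No row lacked a gene.

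Counts were tested with edgeR 4.0.16 (quasi-likelihood, robust, TMM factors, filterByExpr, genotype as the only term) in R 4.3.3, with Benjamini-Hochberg adjustment over all 16588 genes tested. P-values are two-sided, standard errors come from the F statistic, and the test was tried on simulated data. CPM values are counts scaled to the library total. Alternatives used DESeq2 1.42.0, limma 3.58.1, other scaling and filters, a replicate block and 1 library fewer. In limma on RPKM, log2 values were computed with a pseudocount of 0.5 or 0.1 from the deposited values. Sequences are GENCODE M21 transcripts, aligned with Biopython 1.88. Replicates differed beyond sampling noise (chi-square over degrees of freedom 19.0 for KO and 16.7 for WT). Named genes were the members, called genes of the partner list with Srsf12, overlapping genes and the 3 genes most like Srsf1 with a mean of at least 20 CPM. Partners not called were named after their values were seen. The members and lists were chosen with earlier results of these data known.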

Additional observations from a re-analysis of the deposited data

How the results depend on the processing

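With 2 libraries per group, small changes may be missed, and isoforms are not resolved. The calls of Srsf9 and Srsf6 held in 14 of 16 fits each, as did that of Srsf1. The exceptions were limma on log2(RPKM + 0.5) and on log2(RPKM + 0.1) over all genes, which called 0 genes at all, with 4289 and 4370 genes at an unadjusted p under 0.05 (3 members in each, and 10 and 9 partners). There Srsf1 had log2 fold changes of -1.34 and -1.38 (adjusted p = 0.0731 and 0.0556). Where the mean RPKM had to be at least 1, limma called 483 genes higher and 621 lower, with 3 partners lower and Srsf1 called (adjusted p = 0.0119). The count of members called lower was 2, Srsf2 joining Srsf1, with no filter, by limma-voom and with the replicate block (Srsf2 adjusted p = 6.97e-05). Without 1 library it was 1 to 2, and 3 to 5 partners fell. The count of partners that rose was 3 in 6 fits: Srpk2 joined with no filter, with a filter of 1 CPM, with the replicate block and without KO replicate 1 or WT replicate 1, and Snrnp70 by limma-voom (adjusted p = 0.0442). Srsf7 turned to -0.016 without WT replicate 2 (-0.016 to 0.053 over libraries left out). The cause was not tested.

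The labels number the replicates 1 and 2 in both genotypes, but same-numbered libraries did not deviate together (correlation -0.04), so the numbers were not taken as pairs. With the replicate block 1304 genes were higher and 1505 lower, against 1100 and 1308 without it, and Mfsd11 (0.65, adjusted p = 0.0176) and Srpk2 (0.32, 0.0225) were also called higher.

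The change in the Srsf1 share, -1.46 percentage points from RPKM, was -2.01 from counts and -1.80 without Srsf2, Srsf4 and Srsf11, whose spans overlap other genes (Srsf1, which also overlaps one, was kept). With lengths chosen after the data were seen, it was -0.84 per principal transcript length and -1.95 per coding length. The scales tried for the Srsf6 and Srsf9 gains were also chosen after the data were seen. The 9 other members' KO to WT ratio, 1.05, was 1.09 without those 3 genes and 1.07 from counts. It was 1.03 in TPM and 1.03 per coding length, and 1.01 to 1.10 over the 4 pairings of a KO library with a WT library.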
